A study of Mus musculus with 30 samples.

Results

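The 9 genes described here, Cr2, Cd1d1, Cd9, S1pr3, Dtx1, Notch2, Havcr1, Cd5 and Il10, are markers of marginal zone B cells and of regulatory B cells. They were followed across 30 microarrays of mouse splenic B cells, through every probe set annotated to exactly 1 of these symbols. This gave 15 of the 45101 probe sets of the array. They are 9 of the 18193 genes with such a set. Of the 15 sets, 12, covering 8 of the 9 genes, passed the filter on low signal and were tested among 26095 sets. The only set of Cd5 did not pass.

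Resting B cells came from the spleens of C57BL/6, B1-8i mice. In Irf4-/- mice an Irf4 gene could be switched on with doxycycline (DOX), and these cells are called KO at every dose. KO cells were sampled unstimulated at day 0 without DOX, and at days 1 and 3 with zero, low (16 ng/mL) or high (100 ng/mL) DOX. Irf4+/+ (wild-type) cells were sampled at days 0, 1 and 3 without DOX. All day 1 and day 3 cultures received CD40 ligand with the cytokines IL-5, IL-4 and IL-2, and each of the 10 groups had 3 arrays, each from an individual mouse. The series text adds that 2 of the 3 replicates were handled together and 1 at another time. Same-numbered arrays of different KO groups were correlated (0.306 to 0.803), so the KO arrays are not all independent. Neither the promoter driving the inducible gene nor the age of the mice is stated in the sources used here. The arrays read whole splenic B cell samples, not sorted marginal zone cells, so fewer cells of a type and less RNA per cell cannot be told apart.

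Marginal zone B cells are a population at the border of the splenic white pulp that responds quickly to blood-borne antigen. Their formation depends on Notch2 signalling, and they are recognised by high complement receptor CD21 and high CD1d on their surface. Regulatory B cells are defined by what they do: they restrain immune responses, chiefly through the cytokine IL-10. They are often found among cells that carry CD1d together with CD5, or TIM-1, the product of Havcr1. Several of these markers are also used by other cells, among them CD5 and TIM-1 on T cells and CD9 on platelets.

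Promoter windows of 300 bases, 250 before and 50 after each annotated start, were available from RefSeq (assembly GRCm38.p6) for 7 of the 9 genes. The windows of the member that rose most on stimulation (Havcr1), of 2 that fell steeply (Dtx1 and Cr2) and of the one that moved in opposite directions in the genotypes (S1pr3) are printed from 5′ to 3′. Havcr1 has 3 annotated starts, and the window numbered 3 is shown because it held a motif. Capitals mark a match to a searched motif: TGANTCA in Havcr1 and TGGGAA in Cr2 and S1pr3.
Havcr1 window 3, chr11:46750918-46751217, plus strand: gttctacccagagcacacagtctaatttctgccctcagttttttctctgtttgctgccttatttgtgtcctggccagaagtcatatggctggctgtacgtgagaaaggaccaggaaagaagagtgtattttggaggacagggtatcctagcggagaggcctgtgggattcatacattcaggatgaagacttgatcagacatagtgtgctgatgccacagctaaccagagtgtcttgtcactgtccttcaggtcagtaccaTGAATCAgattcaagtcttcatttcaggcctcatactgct
Dtx1, chr5:120711620-120711919, minus strand: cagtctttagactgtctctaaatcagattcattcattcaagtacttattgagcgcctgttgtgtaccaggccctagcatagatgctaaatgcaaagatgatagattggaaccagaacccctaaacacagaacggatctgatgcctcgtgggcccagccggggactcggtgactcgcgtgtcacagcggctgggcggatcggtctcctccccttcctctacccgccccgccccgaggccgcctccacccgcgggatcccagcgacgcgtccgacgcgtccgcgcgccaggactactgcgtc
Cr2, chr1:195176670-195176969, minus strand: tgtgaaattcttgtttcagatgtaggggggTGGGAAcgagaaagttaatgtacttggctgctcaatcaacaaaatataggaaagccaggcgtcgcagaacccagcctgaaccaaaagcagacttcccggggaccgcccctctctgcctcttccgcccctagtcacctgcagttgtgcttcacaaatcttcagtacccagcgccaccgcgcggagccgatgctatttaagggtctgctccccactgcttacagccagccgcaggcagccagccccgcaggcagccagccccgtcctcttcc
S1pr3, chr13:51408368-51408667, plus strand: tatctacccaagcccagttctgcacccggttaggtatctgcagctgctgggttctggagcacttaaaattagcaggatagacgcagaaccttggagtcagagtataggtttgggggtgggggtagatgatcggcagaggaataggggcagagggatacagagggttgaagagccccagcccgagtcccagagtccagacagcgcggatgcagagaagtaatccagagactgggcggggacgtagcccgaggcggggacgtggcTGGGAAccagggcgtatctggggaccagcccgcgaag

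Both strands were searched for 4 letter patterns. GAAA, any 2 bases and GAAA again, the core of the interferon-stimulated response element, occurred in 3.443% of 32851 windows and in none of the 9 windows of these genes. GGAA, any 2 bases and GAAA, the composite site of ETS and IRF factors, occurred in 2.715% of all windows and in none of theirs. TGANTCA, the AP-1 site, occurred in 7.808% of windows and among these genes in Havcr1, starting at base +11 from the start site in the printed window. TGGGAA, the core bound by the Notch effector Rbpj, occurred in 25.561% of windows. Counted from the start site, its first base was at -220 in Cr2, -211 in Cd9, -215 on the opposite strand in Cd5 and 14 in S1pr3, and it was in neither Dtx1 nor Notch2. A match is a string of letters and not a bound site. The remaining members, with their chromosomes, are Notch2 (chromosome 3), Cd1d1 (3), Cd9 (6), Cd5 (19) and Il10 (1).

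Array medians lay between 171 and 200 intensity units, and each group had 3 arrays. Of 6 B cell marker genes with a probe set, 6 were above the table's median intensity of 188.2 on every array. By its DOX-responsive probe set, Irf4 went against the label on a pair of day 1 arrays: zero DOX replicate 2 read 10.77 on the log2 scale (7.84 and 7.80 in its group) and low DOX replicate 2 read 7.69 (11.17 and 10.89). Without these arrays, 2 day 1 calls of member sets were lost and 1 was gained, as given beside the genes concerned. From Xist and Y-linked transcripts, every KO group held 2 male mice and 1 female, while all wild-type mice were female. Myeloid transcripts moved with genotype. Over all tested sets 14.9%, 29.3% and 19.2% were higher in KO cells at days 0, 1 and 3. Of 14 myeloid marker genes, 11, 13 and 10 were higher at these days, and none was lower. Their summed intensity was 9479.5 to 19602.4 in KO arrays against 4025.7 to 4338.2 in wild-type arrays at day 0, 7063.9 to 9155.0 against 2485.0 to 2844.1 at day 1, and 11001.3 to 19764.3 against 2919.8 to 3261.7 at day 3. Within KO cells at day 3 the sum was 2933.1 to 3594.8 with high DOX, against 11001.3 to 19764.3 with zero DOX. The part of sex and of myeloid cells in the results was not tested, beyond fits with a term for sex and fits on female arrays alone.

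**Figure D1:**
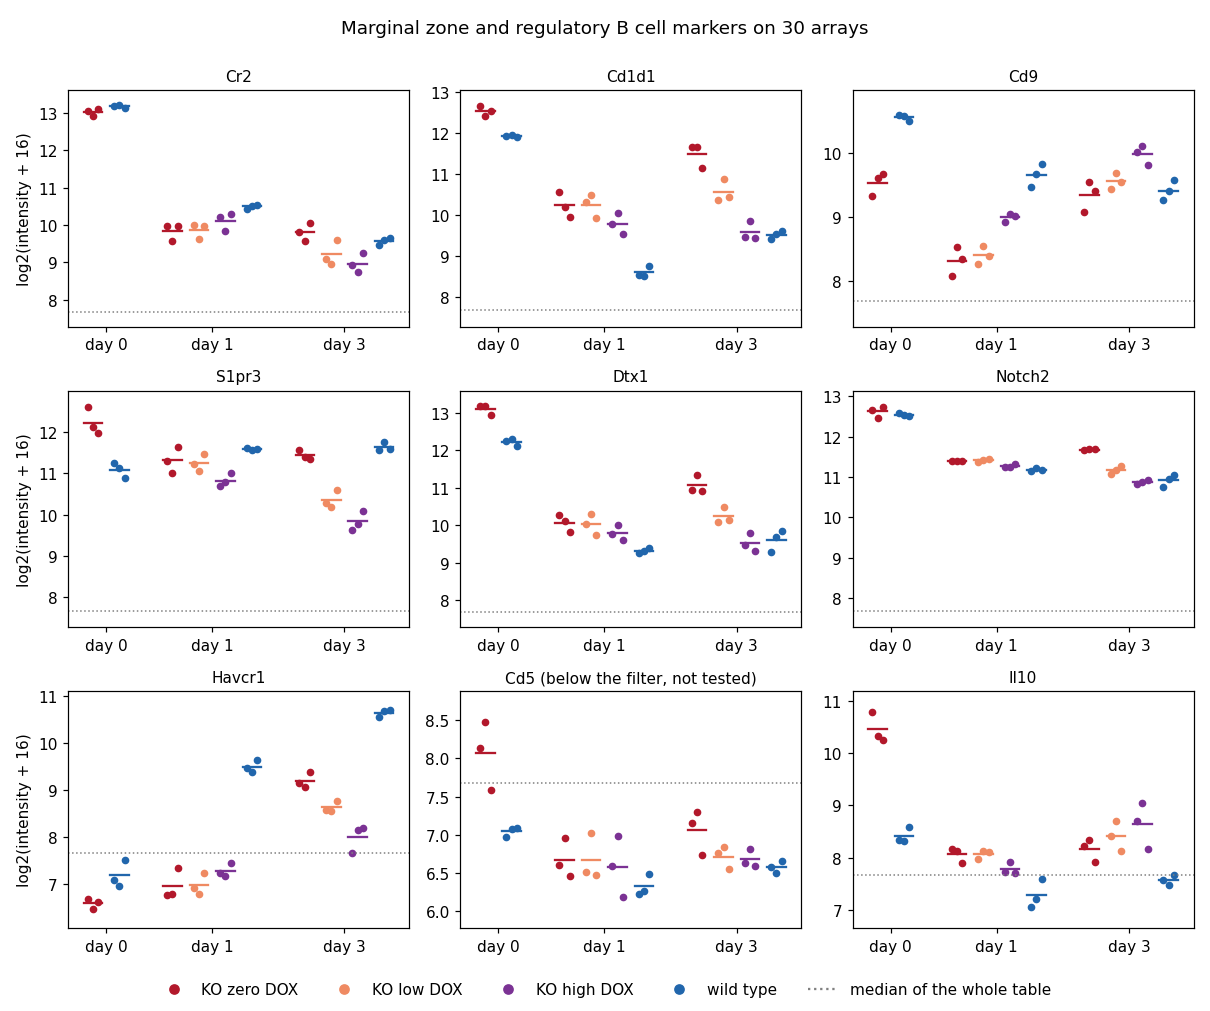
Level of each member on 30 arrays, as log2(intensity + 16), by its brightest tested probe set (for Cd5 its only set, not tested). Points are single arrays, bars the means of 3, grouped by day with KO doses left of wild type; the dotted line is the median of the whole table. Cr2, Cd1d1, Dtx1 and Notch2 stood highest at day 0, and Havcr1 stood highest in wild type at day 3.

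The first question was how these markers change when B cells are activated. In wild-type cells most of them fell within a day: Cd1d1 fell 9.97-fold, Dtx1 7.51-fold, Cr2 6.41-fold and Notch2 2.57-fold. Havcr1 went the other way and rose by 2.30 on the log2 scale by day 1 and by 3.45 by day 3, and S1pr3 rose slightly. Of the 12 tested sets, 3 rose and 8 fell from day 0 at day 1, where 80.1% of all tested sets were called, 31.7% higher and 48.4% lower. The median change of the 12 sets was -1.02 on the log2 scale, beside -0.17 over all tested sets. At day 3 again 3 rose and 8 fell, with 65.5% of all called, 30.2% higher and 35.3% lower. At both days 2 of the 3 that rose were the Havcr1 sets. These passed the filter only through stimulated cells, where Havcr1 was high, so nothing is read from the counts of rises. Between day 1 and day 3, 4 sets rose and 2 fell in wild type, with 65.4% of all called, 38.6% higher and 26.8% lower. A set was called when its Benjamini-Hochberg adjusted p from limma was below 0.05. In KO cells without DOX, 1 set rose and 10 fell at day 1, with 69.8% of all called, 35.1% higher and 34.7% lower. At day 3, 2 rose, both of Havcr1, and 9 fell (62.9% of all called, 31.8% higher and 31.2% lower). Between day 1 and day 3, 7 of the 12 sets rose in KO cells and none fell, with 49.1% of all called, 25.0% higher and 24.1% lower. These 7 belonged to Cd1d1, Cd9, Dtx1, Notch2 and Havcr1. The 1 set that rose at day 1, and 2 of these 7, were of Havcr1, whose low day 1 level in KO cells was part of its choice.

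KO and wild-type cells differed in both directions. Cd1d1 and Dtx1 were higher in KO than in wild-type cells at all 3 days, and Havcr1 was lower by both sets at days 1 and 3. At day 1 its brighter set read 6.77 to 7.34 on the log2 scale in KO and 9.38 to 9.64 in wild-type cells. That low level was part of its choice. Il10 was 4.14-fold higher in KO cells before stimulation, and Cd9 was about 2-fold lower (2.04-fold). Of the 12 sets, 6 were higher and 2 lower in KO cells at day 0, when 30.4% of all tested sets were called, 14.9% higher and 15.4% lower. At day 1 the counts were 5 and 4, with 46.6% of all called, 29.3% higher and 17.3% lower; 2 of the 4 lower sets were those of Havcr1, which was chosen for its low level in KO cells at that day, so nothing is read from this count. At day 3 they were 5 and 2, with 34.8% of all called, 19.2% higher and 15.6% lower. Both lower sets were those of Havcr1. Of these, 1450364_a_at passed the filter only through wild type at days 1 and 3, so nothing is read from the lower count. Relative to zero DOX, high DOX at day 3 raised 2 of the 12 sets and lowered 9 (45.5% of all called, 21.7% higher and 23.8% lower), and low DOX raised none and lowered 9 (31.6% of all called, 15.3% higher and 16.2% lower). General B cell markers fell too, all 6 of 6 tested at each dose. Their median change was -0.72 with high DOX, beside -1.01 in the 12 sets, and -0.41 with low DOX, beside -0.59. A fall with DOX was thus not particular to the member genes. The change from day 0 in KO minus wild type is an interaction. At day 1 it was called in 2 sets higher and 5 lower (41.8% of all, 26.8% higher and 14.9% lower). At day 3 it was called in 4 and 5 (23.2% of all, 13.0% higher and 10.2% lower). At each day 2 of the 5 lower sets were again those of Havcr1, so nothing is read from the lower counts.

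**Figure D2:**
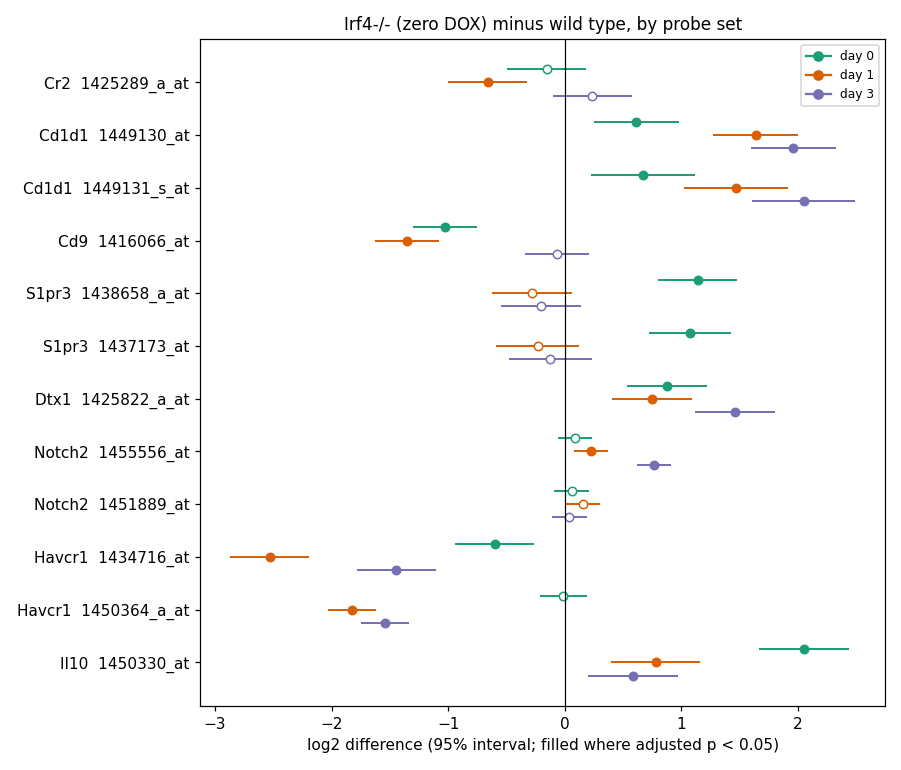
Log2 difference of KO cells without DOX minus wild-type cells for the 12 tested probe sets, with 95% intervals from limma (3 arrays per group); filled points passed the adjusted threshold. Cd1d1, Dtx1 and Il10 lay right of 0, with Il10 at 2.05 at day 0. Both Havcr1 sets lay left of 0 at days 1 and 3. Their day 1 points are descriptions, because the low level in KO cells at that day was part of the choice of Havcr1.

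Notch2, the receptor that directs B cells to the marginal zone fate, was among the brightest members (probe set 1455556_at, chromosome 3). At day 0 it read 12.67, 12.47 and 12.74 on the log2 scale in KO cells, against 12.58, 12.54 and 12.50 in wild type. The groups overlapped, and the difference of 0.09 (95% interval -0.05 to 0.22, adjusted p = 0.362) was not called. At day 1 it had fallen in both genotypes (-1.22 in KO and -1.36 in wild-type cells). KO cells at day 1 read 11.40, 11.41 and 11.40, and wild-type cells 11.14, 11.23 and 11.17. The KO arrays were all higher, by 0.22 (adjusted p = 0.00893), a call that was lost when each array was centred on its median (0.08, adjusted p = 0.332) and on female arrays alone (0.22, adjusted p = 0.151). Over 19 alternatives this adjusted p ran between 0.000648 and 0.332.

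By day 3 the genotypes had parted by the brighter set. Notch2 read 11.66, 11.68 and 11.69 in KO cells with zero DOX, 11.08, 11.18 and 11.28 with low DOX and 10.82, 10.88 and 10.93 with high DOX, against 10.74, 10.95 and 11.06 in wild type. The zero DOX arrays lay above all others, and the 3 doses did not overlap. By this set the zero DOX cells were higher than wild type by 0.76 (SE 0.067, adjusted p = 7.45e-09). Low DOX lowered Notch2 by 0.50 and high DOX by 0.80 relative to zero DOX, the same 3 arrays serving both comparisons. With high DOX it overlapped wild type, the difference being -0.04 (95% interval -0.18 to 0.10). Low DOX cells remained 0.26 above wild type (adjusted p = 0.00428), a call that was lost on the compared groups alone (adjusted p = 0.0818, the highest of 19 alternatives that began at 1.11e-06). The low DOX call against zero DOX was lost on female arrays alone (-0.41, adjusted p = 0.0837, the highest of 19 alternatives that began at 2.72e-07). The change from day 0 to day 3 differed between the genotypes by 0.68 (interaction, adjusted p = 2.23e-05). The second Notch2 set (1451889_at), dimmer but above the table median on all 30 arrays, showed none of this. Its day 3 differences were 0.04 for KO minus wild type (adjusted p = 0.700), 0.08 for high minus zero DOX (0.367) and -0.02 for low minus zero DOX (0.825), with an interaction of -0.02 (0.909). It fell from day 0 to day 1 by less than the first set, with -0.25 in wild type (-0.09 with each array centred on its median and -0.11 after quantile normalization, neither called) and -0.16 in KO cells. The KO call (adjusted p = 0.0451) was lost without the pair of arrays that went against their labels (-0.13, adjusted p = 0.134) and under 11 of 18 alternatives in all (0.0199 to 0.618).

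Dtx1 (1425822_a_at, chromosome 5) encodes Deltex1, a ubiquitin ligase that is induced by Notch signals and is abundant in marginal zone B cells. Its day 0 level was 13.16, 13.19 and 12.94 in KO cells, against 12.25, 12.30 and 12.12 in wild type. Every KO array was above every wild-type array, by 0.87 in the mean (SE 0.16, adjusted p = 0.000268). After a day of stimulation it had fallen steeply in both genotypes (-3.04 in KO and -2.91 in wild-type cells). At day 1 Dtx1 read 10.26, 10.10 and 9.82 in KO cells, against 9.25, 9.30 and 9.40 in wild type. KO arrays were again all higher, by 0.75 (adjusted p = 0.000729), though on female arrays alone the difference was 0.51 (adjusted p = 0.0564, within a range of 4.5e-06 to 0.0564 over 19 alternatives). In KO cells it then rose by 1.00 between day 1 and day 3 (adjusted p = 1.41e-05), while in wild type the change was 0.29 (adjusted p = 0.119, called without wild-type day 3 replicate 1 at 0.45, adjusted p = 0.0259, within a range of 0.0200 to 0.415 over 19 alternatives).

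At day 3 Dtx1 followed the dose of DOX. It read 10.94, 11.33 and 10.92 with zero DOX, 10.08, 10.48 and 10.13 with low DOX and 9.48, 9.79 and 9.31 with high DOX, against 9.29, 9.69 and 9.84 in wild type. No array of one dose overlapped the next. Zero DOX cells exceeded wild type by 1.46 (adjusted p = 2.48e-07), whereas high DOX cells differed from wild type by -0.08 (95% interval -0.41 to 0.26). High DOX lowered it 2.90-fold and low DOX 1.78-fold relative to the same zero DOX arrays. The step between low and high DOX was -0.71 (adjusted p = 0.00513). On female arrays alone both the low DOX effect (-0.79, adjusted p = 0.0507) and that step (-0.83, adjusted p = 0.0844) lost their calls; over 19 alternatives the adjusted p ran between 1.82e-05 and 0.0507 for the first and between 5.5e-05 and 0.0844 for the second. A second Dtx1 set (1458643_at) stayed below the table median on all 30 arrays and was not tested.

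Of 33 further Notch pathway genes, 30 were tested. In wild type at day 1, 8 had risen and 17 fallen from day 0 (median -0.34, beside -0.17 over all sets, of which 31.7% rose and 48.4% fell). The largest change was in Hes1, the classic Notch target, which fell by 3.97. In KO against wild-type cells 4 were higher and 5 lower at day 0, 12 and 4 at day 1, and 6 and 4 at day 3. Over all tested sets 30.4%, 46.6% and 34.8% were called at these days, so the shares in this list lay near the background. At day 3 these included Fbxw7, which targets cleaved Notch for degradation (-1.24), Lfng, a sugar transferase that tunes ligand response (0.93), and Rbpj, the DNA-binding effector (0.43). With high DOX at day 3, 6 were higher and 6 lower than with zero DOX, beside 21.7% and 23.8% of all tested sets. Lfng fell by 1.80 and Psen2 by 0.59, while Hes1 rose by 1.65 and Fbxw7 by 0.78. Hes1 rose with high DOX while Dtx1 and Notch2 fell. Hes1 averaged 9.59 with high DOX and 7.94 with zero DOX, and high DOX cells exceeded wild type by 2.06.

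Cr2 (1425289_a_at, chromosome 1) encodes CD21, the complement receptor that is high on marginal zone B cells and lower on follicular ones. At day 0 it read 13.06, 12.90 and 13.11 in KO cells, against 13.19, 13.21 and 13.12 in wild type. The wild-type arrays were all slightly higher, but the difference of -0.15 (95% interval -0.48 to 0.18, adjusted p = 0.501) was not called. At day 1 it read 9.97, 9.56 and 9.98 in KO cells, against 10.43, 10.51 and 10.54 in wild type. KO cells were lower on every array, by 0.66 in the mean (-0.66, SE 0.16, adjusted p = 0.00188). Without the pair of day 1 arrays that went against their labels the difference was -0.52 (adjusted p = 0.0165, within a range of 4.06e-05 to 0.0199 over 19 alternatives). With high DOX it read 10.22, 9.83 and 10.30, below every wild-type array, a difference of -0.38 that was not called (adjusted p = 0.0628) but was without that pair (adjusted p = 0.0461; 0.00156 to 0.310 over 19 alternatives).

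By day 3 Cr2 had fallen 9.24-fold from day 0 in KO cells and 12.1-fold in wild type. It read 9.81, 9.58 and 10.05 with zero DOX, 9.09, 8.94 and 9.60 with low DOX and 8.92, 8.74 and 9.24 with high DOX, against 9.47, 9.61 and 9.66 in wild type. Zero DOX overlapped wild type and was not called against it (0.23, adjusted p = 0.276), but with a term for sex the difference was 0.44 (adjusted p = 0.00792) and on female arrays alone 0.47 (adjusted p = 0.00394). Over 19 alternatives its adjusted p ran between 0.00394 and 0.645. High DOX lowered Cr2 by 0.85 relative to zero DOX (adjusted p = 0.000114), to below wild type by 0.62 (-0.62, adjusted p = 0.00353). The high DOX arrays lay below all zero DOX and all wild-type arrays. Low DOX lowered it by 0.60 (adjusted p = 0.00561; 0.0631 on the compared groups alone, within a range of 0.00027 to 0.0631 over 19 alternatives), with overlap between the arrays, and the low and high doses did not differ past the threshold (-0.25, 95% interval -0.58 to 0.08).

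Cd1d1 (1449130_at, chromosome 3) encodes CD1d, which presents lipids to NKT cells and is highest on marginal zone and regulatory B cells. Its day 0 level was 12.64, 12.41 and 12.53 in KO cells, against 11.92, 11.94 and 11.89 in wild type. KO arrays were all higher, by 0.61 (SE 0.17, adjusted p = 0.00912). At day 1 it read 10.56, 10.20 and 9.95 in KO cells, against 8.53, 8.51 and 8.75 in wild type. The gap had widened to 1.64, or 3.11-fold (adjusted p = 1.83e-07). The fall from day 0 was smaller in KO cells (4.90-fold) than in wild type (9.97-fold), an interaction of 1.03 (SE 0.24, adjusted p = 0.00226).

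Cd1d1 recovered in part by day 3. It read 11.66, 11.64 and 11.13 with zero DOX, 10.35, 10.87 and 10.43 with low DOX and 9.46, 9.85 and 9.44 with high DOX, against 9.42, 9.53 and 9.60 in wild type. The doses did not overlap one another, and the high DOX arrays overlapped wild type. Zero DOX cells exceeded wild type 3.89-fold (log2 1.96, adjusted p = 7.18e-09), and low DOX cells 2.05-fold (adjusted p = 8.09e-05). High DOX cells differed from wild type by 0.07 (95% interval -0.29 to 0.42). Relative to the same zero DOX arrays, low DOX lowered Cd1d1 1.90-fold and high DOX 3.71-fold. At day 1 high DOX gave 9.78, 10.05 and 9.52, overlapping zero DOX (-0.45, adjusted p = 0.283) and still above wild type by 1.19 (adjusted p = 2.41e-05).

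A second Cd1d1 set (1449131_s_at) was dimmer and followed the same course, with KO cells above wild type by 0.67, 1.47 and 2.05 at days 0, 1 and 3. Its day 0 call was lost without KO day 0 replicate 1 (0.60, adjusted p = 0.0768) and with a term for sex (0.37, adjusted p = 0.0589), the adjusted p of 18 alternatives running between 0.00237 and 0.0768. On female arrays alone the first set was still higher in KO cells at days 0, 1 and 3, by 0.62, 1.35 and 1.62.

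Cd9 (1416066_at, chromosome 6) encodes a tetraspanin carried by marginal zone, B-1 and plasma cells, and also by platelets and myeloid cells. Before stimulation it read 9.32, 9.62 and 9.67 in KO cells, against 10.59, 10.59 and 10.52 in wild type. KO arrays were all lower, by about 1 log2 unit (-1.03, SE 0.13, adjusted p = 2.64e-06). At day 1 it read 8.07, 8.52 and 8.34 in KO cells, against 9.48, 9.67 and 9.84 in wild type. The difference was -1.36 (adjusted p = 3.53e-08), and -1.46 without the pair of arrays that went against their labels. Of 7 platelet markers tested, 2 were higher in KO cells and none lower at day 0 (14.9% of all tested sets were higher). At day 1, 3 were higher and none lower (29.3% of all were higher). Their summed intensity was 2396.4 to 2441.3 in KO against 1875.8 to 2213.4 in wild type at day 0.

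At day 1 Cd9 was the only one of the 12 sets called between high and zero DOX. With high DOX at day 1 it read 8.93, 9.04 and 9.01, above the zero DOX arrays, a rise of 0.69 (SE 0.13, adjusted p = 0.0050). Over all tested sets 1.59% were called, 0.763% higher and 0.832% lower. The call was lost without zero DOX replicate 1 (0.57, adjusted p = 0.0592), on the compared groups alone (adjusted p = 0.105) and on female arrays alone (0.68, adjusted p = 0.246), and over 19 alternatives the adjusted p ran between 0.000767 and 0.246. Low DOX at day 1 called none of the 12 sets, and 0% of all tested sets, by limma. An unadjusted p under 0.05 was found in 0 of the 12 (and in 90 of all 26095 sets). No alternative called any of the 12. The main fit ignored the correlation of same-numbered arrays (0.459 to 0.6815), and replicate 2 of both groups went against its label. These counts are therefore not read as absence of a low DOX effect.

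At day 3 Cd9 in KO cells without DOX no longer lay below wild type. It read 9.08, 9.56 and 9.40 with zero DOX, 9.44, 9.70 and 9.55 with low DOX and 10.02, 10.12 and 9.81 with high DOX, against 9.26, 9.40 and 9.58 in wild type. Zero DOX overlapped wild type (-0.07, 95% interval -0.33 to 0.20), while all high DOX arrays were above both. High DOX raised it by 0.64 over zero DOX (adjusted p = 0.000223; 0.41 and 0.104 on female arrays alone, the highest of 19 alternatives that began at 9.64e-05), and to 0.57 above wild type (adjusted p = 0.000908; 0.40 and 0.0732 on female arrays alone, the highest of 19 that began at 8.87e-06). Low DOX did not pass the threshold (0.22, adjusted p = 0.214) but did with the replicate number as a block (adjusted p = 0.0277, the lowest of 19 alternatives that reached 0.669). Plasma cell markers also rose with high DOX at day 3, all 6 of 6 (21.7% of all tested sets rose). Their summed intensity was 42412.1 to 46582.5 against 18329.1 to 19097.4 with zero DOX. The platelet sum at day 3 was 3576.8 to 4522.3 with zero DOX, 1673.6 to 2059.3 with low DOX and 1488.5 to 1595.3 with high DOX, against 2123.7 to 2704.2 in wild type. The part of platelets and plasma cells in the Cd9 signal was not tested. The change of Cd9 between days 0 and 3 differed between the genotypes by 0.96 (adjusted p = 0.000468).

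**Figure D3:**
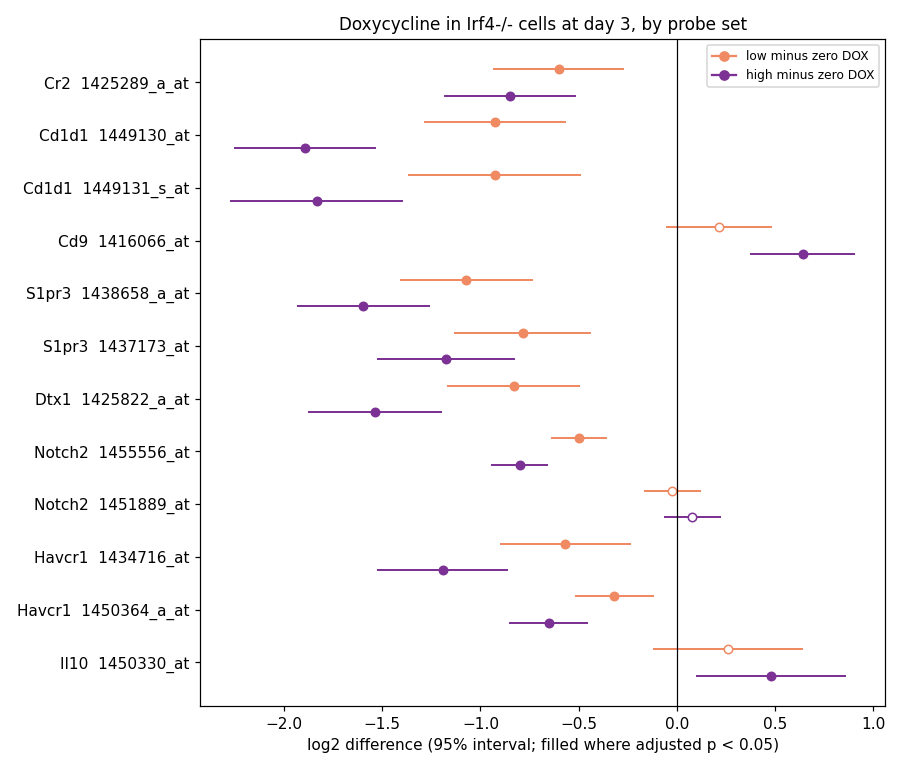
Log2 difference of low and of high DOX minus zero DOX in KO cells at day 3 for the 12 tested probe sets, with 95% intervals from limma (3 arrays per group, the zero DOX arrays shared); filled points passed the adjusted threshold. Cd1d1 lay at -0.93 with low and -1.89 with high DOX, and Cd9 and Il10 lay right of 0.

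Of 13 tested genes on a list of marginal zone surface and lipid genes with follicular counterparts, 9 fell and 3 rose in wild type at day 1. Over all tested sets 48.4% fell and 31.7% rose. Ccr7, a homing receptor (-3.52), S1pr1 (-2.42) and Klf2, a quiescence factor (-2.27), led the falls. Between genotypes Cd36, a lipid scavenger receptor, was lower in KO cells at all 3 days (-1.60 at day 1 and -1.58 at day 3), and high DOX raised it by 1.58 at day 3. Plxnd1, a semaphorin receptor, was higher at the same days (2.47, 0.97 and 1.92), as was Asb2 (1.07, 1.77 and 1.65), which differed by -1.82 between high and zero DOX. Fcer2a, the follicular marker CD23, was lower in KO cells at day 0 (-1.52). In all, 3 of the 13 were higher and 3 lower at day 0, 3 and 2 at day 1, and 6 and 2 at day 3, beside 30.4%, 46.6% and 34.8% called over all tested sets.

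S1pr3 (1438658_a_at, chromosome 13) encodes a receptor for sphingosine-1-phosphate, which together with S1pr1 places B cells in the marginal zone. Its course depended on genotype. At day 0 it read 12.59, 12.11 and 11.97 in KO cells, against 11.25, 11.12 and 10.88 in wild type. KO arrays were all higher, by 1.14, or 2.20-fold (SE 0.16, adjusted p = 1.36e-05), and by 0.88 on female arrays alone. On stimulation it fell in KO cells by 0.91 at day 1 (adjusted p = 1.99e-05; on female arrays alone by 0.34, adjusted p = 0.0850, the highest of 19 alternatives that began at 2.29e-06) and rose in wild-type cells by 0.51 (adjusted p = 0.00642). These changes differed by -1.42 (interaction, SE 0.23, adjusted p = 7.65e-05).

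The genotypes met at day 1, where S1pr3 read 11.31, 10.99 and 11.63 in KO cells, against 11.61, 11.56 and 11.59 in wild type. The arrays overlapped and the difference of -0.28 was not called (95% interval -0.62 to 0.05). It was called when arrays were centred (-0.42, adjusted p = 0.0326), with array weights (-0.34, adjusted p = 0.00861) and without zero DOX replicate 3 (-0.44, adjusted p = 0.0368), the adjusted p of 19 alternatives running between 0.00861 and 0.861. Without the pair of arrays that went against their labels it was -0.12 (and -0.07 by the second set). At day 3 it read 11.56, 11.39 and 11.35 with zero DOX, 10.28, 10.19 and 10.60 with low DOX and 9.64, 9.78 and 10.09 with high DOX, against 11.57, 11.76 and 11.57 in wild type. Zero DOX lay within 0.20 of wild type in the mean (-0.20, adjusted p = 0.359). Both doses lay below every zero DOX and wild-type array.

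Relative to the same zero DOX arrays, high DOX lowered S1pr3 3.03-fold (-1.60, adjusted p = 1.86e-08) and low DOX 2.10-fold (-1.07, adjusted p = 2.00e-05). High DOX cells ended 3.48-fold below wild type (-1.80, adjusted p = 6.54e-09) and low DOX cells 2.42-fold below. For Cd1d1, Dtx1 and Notch2 the high DOX arrays overlapped wild type at this day, and for S1pr3 they did not. A second S1pr3 set (1437173_at) gave 1.07 at day 0, -0.23 at day 1 and -0.12 at day 3 for KO minus wild type, and -1.17 for high minus zero DOX. Its small rise in wild type was not called (0.30 at day 1, adjusted p = 0.104, with 6 of 18 alternatives calling it). The remaining set (1460661_at) stayed below the table median on all 30 arrays.

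Of 9 tested sphingosine phosphate receptors and enzymes, none rose and 5 fell in wild type at day 1, beside 31.7% and 48.4% of all tested sets. Among the falls were Spns2, a sphingosine phosphate exporter (-2.52), and S1pr1 (-2.42). In KO against wild-type cells 2 were higher and 3 lower at day 0 (30.4% of all called), with Sgpl1, the lyase that degrades the lipid, at 0.89, S1pr4 at -0.56 and S1pr1 at 0.37. High DOX at day 3 lowered 4, led by S1pr1 (-1.02) and Spns2 (-0.69), and raised 2, beside 23.8% and 21.7% of all tested sets. S1pr1 was also lower in high DOX cells than in wild type (-1.06), as S1pr3 was.

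Havcr1 (1434716_at, chromosome 11) encodes TIM-1, a phosphatidylserine receptor that marks regulatory B cells and is also found on activated T cells. It was dim in resting cells, where it read 6.68, 6.48 and 6.64 in KO, against 7.09, 6.98 and 7.53 in wild type. All of these lay below the table median of 7.67. The KO arrays were lower by 0.60 (-0.60, adjusted p = 0.00609). This call was lost with the replicate number as a block (adjusted p = 0.0553), without wild-type day 0 replicate 3 (-0.44, adjusted p = 0.0523) and on female arrays alone (-0.56, adjusted p = 0.0975), and the second set did not show it (-0.01, adjusted p = 0.939). Over 19 alternatives the adjusted p ran between 0.00461 and 0.0975.

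At day 1 Havcr1 read 6.77, 6.79 and 7.34 in KO cells with zero DOX, 6.92, 6.79 and 7.25 with low DOX and 7.25, 7.18 and 7.45 with high DOX, against 9.47, 9.38 and 9.64 in wild type. Every KO array was below the table median and every wild-type array far above it. The low level in KO cells at day 1 is part of how this gene was chosen, so the difference is a description: -2.53 for zero DOX minus wild type on the log2 scale. With the KO arrays below the table median, the size of the fold is uncertain. It was -2.44 without the pair of arrays that went against their labels and -2.16 on female arrays alone. The second set (1450364_a_at) read 6.34, 6.32 and 6.52 in zero DOX cells and 8.14, 8.14 and 8.37 in wild type, a difference of -1.82. By the first set high DOX cells at day 1 lay 0.32 over zero DOX cells and differed from wild type by -2.21. These are descriptions too, and whether high DOX changed Havcr1 at day 1 cannot be read from arrays below the table median.

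Havcr1 stood higher at day 3 than at day 1 in both genotypes. In zero DOX cells the difference was 2.24, given as a description because the low day 1 level is part of how the gene was chosen and lay below the table median. In wild type Havcr1 rose 2.23-fold between these days (1.16, adjusted p = 1.22e-06). From day 0 to day 1 the KO difference was 0.37 by the first set and 0.03 by the second, with every one of these arrays below the table median.

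At day 3 Havcr1 fell with the dose of DOX. It read 9.16, 9.06 and 9.40 with zero DOX, 8.59, 8.56 and 8.77 with low DOX and 7.68, 8.16 and 8.21 with high DOX, against 10.57, 10.68 and 10.71 in wild type. The 4 groups did not overlap, and wild type was highest. Zero DOX cells were 2.73-fold below wild type (-1.45, SE 0.16, adjusted p = 2.31e-07) and high DOX cells 6.23-fold below (-2.64, adjusted p = 7.53e-12). High DOX lowered Havcr1 by 1.19 relative to zero DOX (adjusted p = 1.39e-06) and low DOX by 0.57 (adjusted p = 0.00834; -0.47 and adjusted p = 0.0506 without zero DOX replicate 3; -0.63 and 0.117 on female arrays alone; 0.000483 to 0.117 over 19 alternatives). With DOX, Havcr1 thus lay further below wild type than without it. The second set lay below the table median on every KO array at day 3 (6.62 to 7.54), so it adds no separate measure of the dose effect.

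Of 3 other genes of the TIM family list, only Timd2 was tested. It rose in wild type by 2.63 at day 1 and 3.05 at day 3. KO cells were lower by 1.34 at day 1 and by 1.86 at day 3 (-1.34 and -1.86). Timd2 averaged 8.46 with high DOX at day 3, against 8.57 with zero DOX and 10.43 in wild type. High DOX did not change it past the threshold (-0.11), so it stayed below wild type as Havcr1 did, without a fall from zero DOX.

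**Figure D4:**
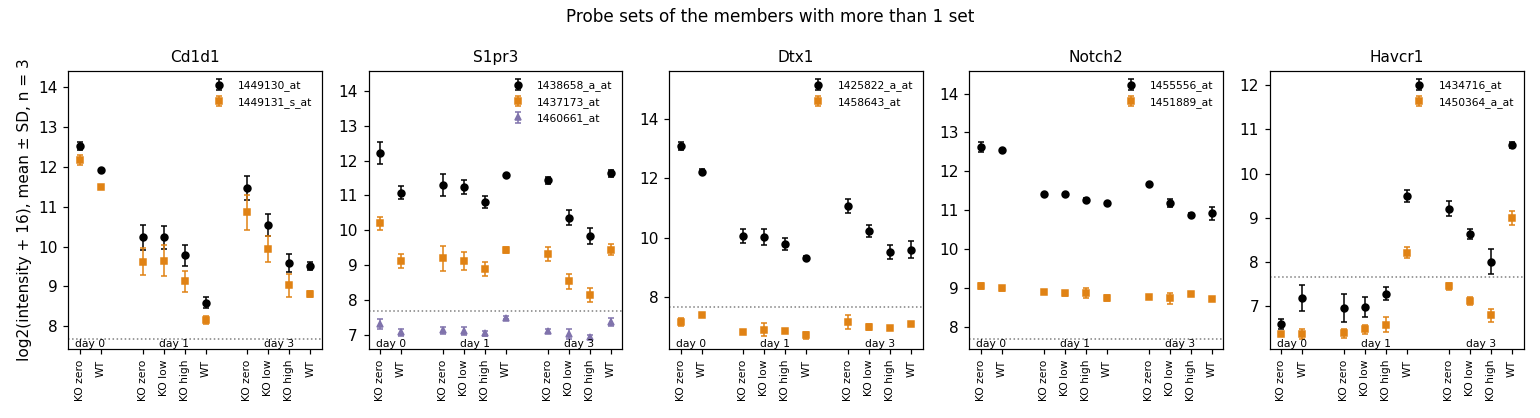
Mean and SD of 3 arrays, as log2(intensity + 16), for every probe set of the 5 members with more than 1 set, KO left of wild type at each day; the dotted line is the table median. The brighter sets of Cd1d1, S1pr3 and Havcr1 moved in parallel, whereas 1458643_at of Dtx1 and 1460661_at of S1pr3 lay below the table median and 1451889_at of Notch2 stayed between 8.57 and 9.13.

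Cd5 (1418353_at, chromosome 19) encodes an inhibitory receptor of T cells, of B-1 cells and of IL-10-producing B cells. It exceeded the table median on 2 of 30 arrays and was not tested. Those arrays were KO day 0 replicates 1 and 2, in a group that read 8.13, 8.48 and 7.58, against 6.97, 7.08 and 7.09 in wild type at day 0. All KO day 0 arrays were above all wild-type ones. At the later days its group means lay between 6.33 (wild type, day 1) and 7.06 (KO zero DOX, day 3). T cell markers were also higher in KO cells at day 0, 4 of 8 tested genes and none lower (14.9% of all tested sets were higher). Summed over 11 genes, their intensity was 3757.8 to 3954.4 against 3090.6 to 3653.5 in wild type. Of these 11 genes, 4 were above the table median on all 30 arrays (Cd4, Cd8a, Lat and Thy1). Only 1, Cd6, a relative of Cd5 on T cells, was above it on no array. Whether T cells account for the Cd5 signal was not tested.

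Among 5 tested B-1 cell genes, 5 were higher in KO than in wild-type cells at each of days 0, 1 and 3, with median differences of 1.24, 1.23 and 1.10; over all tested sets 14.9%, 29.3% and 19.2% were higher. They included Spn, the B-1 marker CD43 (1.24, 1.29 at days 0 and 1), Zbtb32, a repressor of recall responses (1.17, 2.43 and 2.29), and Ptpn22, a phosphatase that dampens receptor signals (1.39, 0.62 and 1.15). Itgam, also a myeloid integrin, was 1.28 higher at day 0. With high DOX at day 3, 4 of the 5 fell (23.8% of all tested sets did), among them Zbtb32 (-1.47) and Cd72 (-1.77), and Spn rose by 1.16. Spn and Itgam are also expressed by myeloid cells. Myeloid markers were higher in KO cells and, with high DOX at day 3, lower in 10 of 14 genes. The part of myeloid cells in these differences was not tested.

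Il10 (1450330_at, chromosome 1), the effector cytokine of regulatory B cells, showed the largest difference of any member before stimulation. At day 0 it read 10.79, 10.34 and 10.25 in KO cells, against 8.34, 8.31 and 8.58 in wild type. The groups were far apart, by 2.05 (SE 0.18, adjusted p = 2.00e-08), or 4.14-fold, and by 1.84 on female arrays alone. At day 1 it had fallen 5.28-fold in KO cells, to 8.17, 8.12 and 7.89, and 2.19-fold in wild type, to 7.05, 7.20 and 7.59. KO cells were still higher, by 0.78 (adjusted p = 0.00142). The falls differed between the genotypes by -1.27 (interaction, adjusted p = 0.000634). All wild-type arrays at day 1 lay below the table median of 7.67. The sizes of the wild-type fall and of this difference are therefore uncertain.

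At day 3 Il10 read 8.22, 8.33 and 7.92 with zero DOX, 8.42, 8.70 and 8.13 with low DOX and 8.69, 9.05 and 8.16 with high DOX, against 7.57, 7.48 and 7.67 in wild type. Every KO array was above every wild-type array. All wild-type arrays lay below the table median, so the size of differences from wild type is uncertain. The 3 doses overlapped one another, but among same-numbered KO arrays Il10 rose from zero to low to high DOX in each replicate. Zero DOX exceeded wild type by 0.58 (adjusted p = 0.0148). This call was lost without KO day 3 replicate 2 (0.50, adjusted p = 0.0744) or wild-type replicate 2 (0.54, adjusted p = 0.0579), with a term for sex (0.38, adjusted p = 0.0609) and on female arrays alone (0.35, adjusted p = 0.197), within a range of 0.00252 to 0.197 over 19 alternatives. High DOX cells exceeded wild type by 1.06, or 2.09-fold (adjusted p = 5.34e-05), and low DOX cells by 0.85 (adjusted p = 0.00104; 0.56 and 0.0766 on female arrays alone, the highest of 19 alternatives that began at 4.88e-07).

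High DOX raised Il10 by 0.48 over zero DOX (adjusted p = 0.0341), the opposite direction to Cd1d1 and Havcr1. The call was lost under 6 of 19 alternatives (adjusted p between 0.00189 and 0.456): on the compared groups alone (0.130), on female arrays alone (0.24, 0.456) and without high DOX replicate 1 (0.45, 0.0903) or 2 (0.27, 0.256), or zero DOX replicate 1 (0.51, 0.0516) or 3 (0.36, 0.152). With the replicate number as a block, low DOX also passed (0.26, adjusted p = 0.00892), which it did not in the unblocked fit (adjusted p = 0.297) or under the other alternatives (up to 0.695). NK cell markers were higher in KO cells at day 0 in 4 of 5 tested genes (14.9% of all tested sets were higher). Their summed intensity was 3129.1 to 3811.4 against 1282.4 to 1542.1 in wild type. With high DOX at day 3 the myeloid and NK sums were lower than with zero DOX (NK 1236.2 to 1878.2 against 4992.2 to 9023.3), while Il10 was higher. Their part in the day 0 difference was not tested.

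Of 9 regulators of Il10 transcription that were tested, 4 were higher and 3 lower in KO cells at day 0, 3 and 1 at day 1, and 5 and 2 at day 3, beside 30.4%, 46.6% and 34.8% of all tested sets called. Maf, a direct activator of Il10 in T cells and macrophages, was higher at days 0, 1 and 3 by 1.61, 3.40 and 3.62. Bhlhe40, a repressor of Il10 in T cells, was higher by 0.69, 1.25 and 1.33, and Ahr was lower (-0.56, -1.61 and -1.40). Prdm1, the plasma cell regulator Blimp-1, was lower at day 3 (-1.70). With high DOX, Prdm1 rose by 3.20 and Maf fell by 1.87, while Il10 rose. Maf averaged 9.22 with high DOX at day 3, against 11.09 with zero DOX and 7.47 in wild type. Of 6 tested genes of IL-10 signalling, Il10ra, the ligand-binding receptor chain, was higher in KO cells at days 1 and 3 (0.81 and 1.39), and high DOX lowered it by 1.32.

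Among 14 tested effectors of regulatory B cells, 7 were higher and 1 lower in KO cells at day 0, 8 and 0 at day 1, and 7 and 3 at day 3, beside 30.4%, 46.6% and 34.8% of all tested sets called. Their median differences were 0.26, 0.39 and 0.33, beside -0.03, 0.05 and 0.01 over all tested sets. Gzmb, the cytotoxic protease granzyme B, was higher by 0.86, 1.83 and 2.41 and fell by 2.45 with high DOX. Ebi3, a subunit of IL-35, was higher at day 0 (0.91). Entpd1, the ectonucleotidase CD39, was 0.56 higher in KO cells at day 3 and rose by a further 1.73 with high DOX, to 2.28 above wild type. Cd24a, which is high on immature and regulatory B cells, was lower in KO cells at day 3 (-1.40) and rose by 2.18 with high DOX. Gzmb is also an NK and T cell product, and the NK markers moved with it; their part was not tested.

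Of 6 tested B cell markers, 4 were lower with high than with low DOX at day 3 and none higher. This step between low and high DOX called 8 of the 12 member sets, 1 higher and 7 lower, with 10.4% of all tested sets called, 5.46% higher and 4.93% lower. The count fell to 4 without high DOX replicate 1 or without low DOX replicate 3. Cd1d1 (-0.97, adjusted p = 0.000565) and Dtx1 (-0.71) kept their calls whichever array was left out. The calls of S1pr3 and Cd9 for this step were lost under 7 of 19 alternatives each and that of Havcr1 under 4. Against wild type at day 3, high DOX had 2 sets higher and 5 lower (37.4% of all called, 19.6% higher and 17.8% lower), and low DOX had 5 higher and 4 lower (30.6% of all, 16.9% higher and 13.8% lower). In each comparison 2 of the lower sets were those of Havcr1. At day 1 high DOX had 4 sets higher than wild type and 5 lower (37.5% of all, 25.0% higher and 12.5% lower). Of the 5, 2 were the Havcr1 sets, chosen for that low level. The higher call of Il10 was lost under 10 of 19 alternatives and that of Dtx1 under 6. The lower call of S1pr3 1437173_at was lost under 2 of 18, and no other was lost. With 1 array left out this count ran between 7 and 9. Of the 8 tested genes, Cd1d1, Dtx1 and Notch2 with high DOX at day 3 were not called against wild type, while Cr2, S1pr3 and Havcr1 were lower and Cd9 and Il10 higher.

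Likeness of other genes to each member was measured as Pearson's r over the 10 group means, as a description. Dtx1 was most like Pip4k2a (0.9964), Notch2 like Camta2 (0.9972) and Cr2 like Atxn7l3b (0.9953), all of which share the large difference between resting and stimulated cells. Cd1d1 was most like Anxa1 (0.9922), and next Lrch1 (0.9886). Havcr1 was most like Eif3e (0.9815) and Il10 like Slc7a7 (0.9647), followed by Lmna (0.9641) and C1qb, a complement gene of macrophages (0.9622). Cd9 was most like Lsm14b (0.9665) and S1pr3 like Phtf2 (0.9532).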

How the data were processed

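RNA from 30 samples of splenic B cells, unstimulated or cultured, was read on Affymetrix expression arrays, 3 in each of 10 groups. Each deposited value is a linear intensity of a probe set on an array. According to the series text, the authors obtained it with D-Chip from the perfect-match probes alone; MAS5 also appears in the submitters' processing notes, where its role is not stated. Intensities ran between 1 and 30619.06. Of 45101 probe sets, 64 controls were left out, 34945 had 1 gene symbol, 932 several and 9160 none, and 34741 symbols were matched by Entrez identifier to RefSeq (GRCm38.p6).

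A pseudocount of 16 was added before taking log2, so fold changes of dim sets are understated. Sets above the table median on at least 3 of 30 arrays were tested (26095). Havcr1 passed only through the groups in which it was high: 1434716_at through wild type at days 1 and 3 and KO at day 3 (15 arrays), and 1450364_a_at through wild type at days 1 and 3 (6 arrays). Il10 was above the median on 24 arrays, all but those of wild type at days 1 and 3. Limma 3.58.1 under R 4.3.3 fitted 1 mean per group to all arrays (20 residual degrees of freedom), with Benjamini-Hochberg adjustment over all tested sets within each of 19 comparisons, and was tested on simulated data. A gene's brightest tested set represents it. All 9 genes are named, with up to 4 of the largest called changes from each further list and the nearest genes by correlation of group means. The result of 1 further list is not reported here. The members and lists were chosen with earlier results of these data known. The main fit took arrays as unpaired, and its p-values measure the spread between arrays within groups. Same-numbered KO arrays were correlated, as given below. For comparisons within KO cells this spread therefore includes a part shared by replicate, which only the fits with a replicate block take out.

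Replicate numbers were checked for pairing by correlating deviations from group means. Within KO groups every same-numbered pair exceeded 0.1 (0.306 to 0.803), so the numbers pair KO samples; wild-type pairs (lowest -0.0678) and pairs across genotypes (lowest -0.1036) did not all do so. Alternatives were pseudocounts of 1 and 64, other filters and normalizations, 1 set per gene, array weights, a term for sex, the compared groups alone, the replicate block, leaving out each array, and leaving out the pair of day 1 arrays. Fits on female arrays only were added after seeing the data and leave 1 array in each KO group.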

Additional observations from a re-analysis of the deposited data

Results flagged for a closer look

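The change on stimulation differed between the genotypes, by the interaction term of the same limma model, in 7 of the 12 tested sets at day 1 and in 9 at day 3. Over all tested sets the shares were 41.8% and 23.2%. Nothing is read from the day 1 count, since 2 of its sets are those of Havcr1, chosen for its low level in KO cells at that day. The day 3 count also holds both Havcr1 sets, of which 1450364_a_at passed the filter only through wild type at days 1 and 3. Values are the KO change from day 0 minus the wild-type change, on the log2 scale. Each had an adjusted p under the threshold, which is not read for Havcr1 at day 1 or for 1450364_a_at at day 3.

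Cd1d1 fell less in KO cells: 1.03 and 0.80 at day 1 for 1449130_at and 1449131_s_at, and 1.35 and 1.38 at day 3. The day 1 value of 1449131_s_at (adjusted p = 0.0345) lost its call without the pair of day 1 arrays that went against their labels (0.78, adjusted p = 0.0519), and also without any of 9 single arrays (lowest 0.64, without KO day 1 replicate 1, adjusted p = 0.103), the adjusted p of 24 alternatives running between 0.00175 and 0.117. S1pr3 fell in KO cells and not in wild type: -1.42 and -1.31 at day 1 for 1438658_a_at and 1437173_at, and -1.34 and -1.20 at day 3. Havcr1 rose less in KO cells: -1.93 and -1.81 at day 1 for 1434716_at and 1450364_a_at, and -0.85 and -1.53 at day 3. On female arrays alone the day 3 value of 1434716_at was -0.69 (adjusted p = 0.126, the highest of 25 alternatives that began at 0.000469). The low level of Havcr1 in KO cells at day 1 is part of how the gene was chosen, so its day 1 values are a description. So is the day 3 value of 1450364_a_at, given how that set passed the filter.

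Il10 fell further in KO cells (-1.27 at day 1 and -1.46 at day 3). The size of these values is uncertain, because Il10 in wild type lay below the table median at both days. At day 3 alone, Cd9 (0.96) and Notch2 by its brighter set (0.68) differed as well. Il10 and S1pr3 differed most between the genotypes at day 0, where KO cells were higher. Whether the myeloid and NK transcripts that were higher in the same KO arrays play a part was not tested.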

How the results depend on the processing

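Of 2869 recomputed differences of single sets under the alternatives other than leaving out 1 array, 2749 kept their side of the threshold, 68 lost and 52 gained a call, and 0 called differences changed sign; with 1 array left out, 1451 of 1512 kept it, 51 lost and 10 gained a call, and 0 changed sign. Differences called in neither fit were not read for sign. The setting with the most losses, 30, was female arrays only, an alternative chosen after seeing the data that leaves 1 KO array in each group.

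Counts of called member sets that moved by over 1.5 times were few. For high minus zero DOX at day 1 (1 set) the count was 2 with array weights, 2 with a term for sex, 0 on the compared groups alone, 0 on female arrays and between 0 and 1 with 1 array left out. For low minus zero DOX at day 3 (9) it was 4 on female arrays. For high minus low DOX at day 3 (8) it was 3 on the compared groups alone, 2 on female arrays and between 4 and 8 with 1 array left out. With 1 set per gene, which leaves 8 sets to test, KO day 3 minus day 0 gave 7 (11) and the day 1 interaction 4 (7). With the replicate number as a block, no count moved by over 1.5 times; among KO comparisons the dim Notch2 set lost its day 1 call (adjusted p = 0.114), Cd9 and Il10 gained calls for low minus zero DOX at day 3, and S1pr3 1437173_at gained one for high minus low DOX (-0.39, adjusted p = 0.0116). The cause of these moves was not tested. Signal below the table median limits Havcr1 in resting cells and in KO cells at day 1 (1450364_a_at in every KO group), Cd5, and Il10 in stimulated wild-type cells.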
